A study of Homo sapiens with 8 samples.

Results

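The epithelial-to-mesenchymal transition (EMT) regulators and mesenchymal markers are 10 genes given by name and matched by symbol to Ensembl identifiers in the count table. All 10 were found among its 58206 genes. The list holds the transcription factors SNAI1, SNAI2, ZEB1, ZEB2, TWIST1 and TWIST2, the intermediate filament gene VIM, and the genes of the secreted matrix proteins FN1, SPARC and TGFBI. RNA was sequenced from Alexander1 cells, an established epithelial line from a human hepatocellular carcinoma, in 4 parental libraries (genotype wt, Axin1 -) and 4 libraries labelled Axin1+, called restored-labelled here. According to the series' design text, the parental line lacks the stretch of Axin1 to which GSK3 binds, so that its Wnt pathway is always active, and the derivative carries full-length Axin1. The plasmid entered the derivative by a VSVG retrovirus, and clones were picked under hygromycin B, a step that the labels repeat for the parental libraries too. The labels do not say how many clones the 4 libraries came from, nor whether the libraries of a group came from separate cultures, so the p-values measure only the spread between these libraries. No time, dose or batch is given, and both groups were grown in DMEM with fetal bovine serum.

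EMT is the programme by which epithelial cells loosen their junctions and take on a migratory, matrix-producing form. Snail, ZEB and Twist proteins bind E-box sequences and repress epithelial genes such as CDH1, while vimentin and fibronectin are the most used readouts of the mesenchymal state. TGF-beta is a classical inducer of the programme, and Wnt signalling touches it because GSK3, which Axin1 brings to beta-catenin, also marks the Snail protein for degradation. In liver, EMT genes are studied in fibrosis and in the spread of hepatocellular carcinoma, and hepatocytes themselves secrete fibronectin into plasma.

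The libraries held 11232951 to 26400782 counts, and 14289 genes were abundant enough to be tested. The first principal component separated the labels. On the second, parental replicate 1 stood apart at 61.5, against -30.3 to 24.9 for the other libraries, and restored-labelled replicate 1 lay nearest to the parental libraries on the first (22.2, against 48.7 to 56.8). For a number of genes and lists, values without these libraries are given beside those of the full fit, though not for every call that changed. AXIN1 mRNA was not higher in the libraries labelled as restored (45.4 CPM ± 5.13 against 52.4 CPM ± 3.49 in the parental ones, SD, n = 4 each, edgeR adjusted p = 0.267), so each direction below follows the labels. CPM values are counts scaled for depth with TMM-adjusted library totals.

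Across the list, the mesenchymal markers VIM and FN1 fell in the restored-labelled libraries together with TWIST2, while TGFBI rose. SNAI1, ZEB1 and SPARC were detected but did not pass the test, and SNAI2, ZEB2 and TWIST1 were at or near 0 counts in both groups. Of the 7 genes that could be tested, 4 passed at an adjusted p of 0.05, 3 lower and 1 higher, in edgeR's quasi-likelihood fit with adjustment over all tested genes. Among all tested genes, 19.2% passed in either direction, 8.77% lower and 10.4% higher. The median log2 fold change of the 7 genes was -0.85, beside 0.003 over all tested genes. In 3 of the 7 (VIM, TWIST2 and TGFBI) the 4 parental values lay wholly apart from the 4 restored-labelled ones, as in 23.9% of all tested genes. Fewer cells carrying a transcript and less of it per cell cannot be told apart in these bulk libraries.

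**Figure D1:**
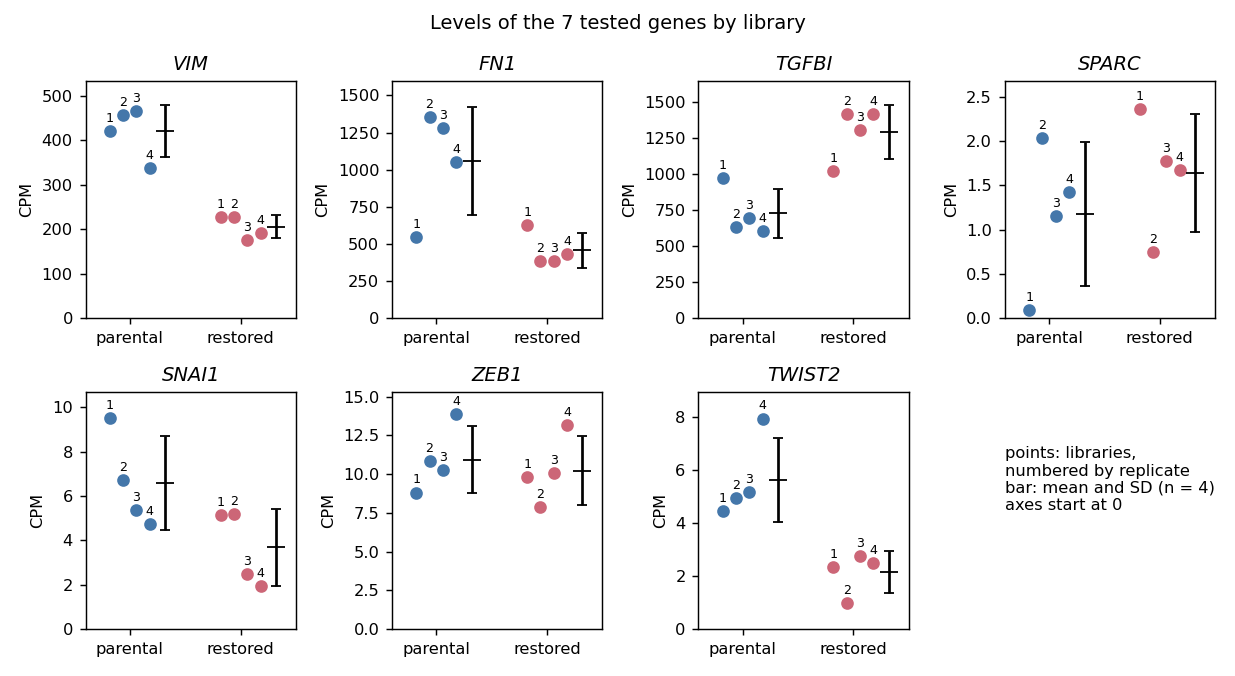
Level in CPM (vertical axes, each starting at 0) of the 7 tested genes in the 4 parental (blue) and 4 restored-labelled (red) libraries, numbered by replicate, with the mean and SD of each group. VIM, TWIST2 and TGFBI show no overlap between the labels, whereas FN1 overlaps through parental replicate 1 (546 CPM) and restored-labelled replicate 1 (626 CPM).

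Sequence upstream of the 4 genes that passed the test is shown because 3 of them fell together while TGFBI rose. RefSeq windows of 250 bases before the annotated start (GRCh38.p14) were used for 7 of the 10 genes. Each sequence runs 5′ to 3′ on the gene's strand and stops before the first base of any GENCODE transcript of that gene. Capitals mark complete matches, on either strand, to the motifs searched: the Snail and ZEB E-box CAGGTG, the TCF/LEF motif CTTTGAT, the AP-1 motif TGANTCA, the cyclic AMP response element (CRE) TGACGTCA, the GC box GGGCGG and the TATA motif TATAAA. VIM is from chr10:17227991-17228240 (plus strand), FN1 from chr2:215436173-215436318 (minus strand), TWIST2 from chr2:238847835-238848031 (plus strand) and TGFBI from chr5:136028738-136028894 (plus strand).
VIM: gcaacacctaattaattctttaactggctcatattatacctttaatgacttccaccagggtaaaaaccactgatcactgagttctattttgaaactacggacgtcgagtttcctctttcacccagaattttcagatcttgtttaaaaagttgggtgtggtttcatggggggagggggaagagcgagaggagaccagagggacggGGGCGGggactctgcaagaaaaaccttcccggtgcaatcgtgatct
FN1: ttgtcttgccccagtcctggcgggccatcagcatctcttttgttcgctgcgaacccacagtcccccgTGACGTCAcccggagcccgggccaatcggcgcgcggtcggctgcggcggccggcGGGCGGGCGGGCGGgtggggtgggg
TWIST2: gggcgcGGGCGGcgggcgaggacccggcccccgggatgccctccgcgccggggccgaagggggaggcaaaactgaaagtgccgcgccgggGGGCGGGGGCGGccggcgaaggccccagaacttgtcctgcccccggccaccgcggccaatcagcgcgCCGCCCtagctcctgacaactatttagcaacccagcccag
TGFBI: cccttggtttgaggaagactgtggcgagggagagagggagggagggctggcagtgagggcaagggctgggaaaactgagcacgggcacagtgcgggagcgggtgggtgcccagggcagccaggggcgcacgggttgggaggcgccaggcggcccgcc

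Each of the 4 full windows held a GC box, as did 42.6% of the 35093 RefSeq windows of this length. The FN1 window was the only one of the 4 with a CRE, from base -183 to -176 before the start, a motif found in 1.65% of all windows. The FN1 window held 6 GC boxes, some of which overlap, the TWIST2 window 4, the TGFBI window 3 and the VIM window 1. Those of TGFBI lie wholly or partly past the printed stretch and so carry no capitals. The same holds for the FN1 boxes that start at bases -107, -102 and -49. None of the 4 windows held the Snail and ZEB E-box (17.5% of all windows), the TCF/LEF motif (2.26%), the AP-1 motif (6.57%) or the TATA motif (10.7%). The windows of FN1, TGFBI and TWIST2 were rich in G and C (76.4%, 72.8% and 68.4%), beside a median of 58% over all windows, and that of VIM was not (46%). A match is a description of letters and shows no binding, and a missing one says only that these letters are not in this window.

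VIM (ENSG00000026025, chromosome 10, 17228259 to 17237593, plus strand in GRCh38) encodes vimentin, the type III intermediate filament protein of mesenchymal cells. Parental replicates 1 to 4 held 421, 456, 466 and 337 CPM. In restored-labelled replicates 1 to 4 it was 227, 227, 176 and 191 CPM. Every restored-labelled library lay below every parental one. The means were 420.2 CPM ± 58.5 and 205 CPM ± 25.8 (SD, n = 4 each), a 2.05-fold lower level (log2 fold change -1.03, SE 0.15, 95% confidence interval -1.36 to -0.71, edgeR adjusted p = 0.0011). The call held in all 17 alternative analyses, with log2 fold changes between -1.13 and -0.95. VIM was also the least variable of the 7 tested regulators and markers within the groups, with coefficients of variation of 13.9% and 12.6%. Exons of VIM overlap those of VIM-AS1 and AL133415.1 on the opposite strand, which held 284 and 77 counts over all libraries, beside 38955 for VIM. The sources do not say whether reads were counted by strand.

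FN1 (ENSG00000115414, chromosome 2, 215360440 to 215436172, minus strand) encodes fibronectin, a matrix glycoprotein bound by integrins and also a product of normal hepatocytes. The parental libraries held 546, 1356, 1282 and 1052 CPM and the restored-labelled ones 626, 383, 384 and 434 CPM. Parental replicate 1 was thus the only parental library within the range of the restored-labelled ones, whose own highest value was that of replicate 1. FN1 fell 2.32-fold between group means of 1059 CPM ± 366 and 457 CPM ± 115 (SD, n = 4 each). On the log2 scale the difference was -1.21 (SE 0.27, 95% confidence interval -1.81 to -0.62, edgeR adjusted p = 0.0121). Without parental replicate 1 the log2 fold change was -1.43 (edgeR adjusted p = 0.000303), and without both replicates 1 it was -1.62 (edgeR adjusted p = 2.8e-06), an analysis added after the values were seen. Among the fits without a single library, the change was smallest without parental replicate 2 (-1.07, edgeR adjusted p = 0.0416). The adjusted p was largest without restored-labelled replicate 3 (-1.14, edgeR adjusted p = 0.0459). The call was lost in 1 of 17 alternative analyses, the fit with a block for the replicate number (-1.18, edgeR adjusted p = 0.0518). Of the 4 printed promoters, that of FN1 holds the CRE letters. FN1 is transcribed into several splice forms, which gene-level counts do not separate.

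TGFBI (ENSG00000120708, chromosome 5, 136028895 to 136063818, plus strand) encodes a secreted adhesion protein with fasciclin domains, found and named as a gene induced by TGF-beta. It stood at 971, 629, 695 and 605 CPM in the parental and at 1020.1, 1415, 1304 and 1414 CPM in the restored-labelled libraries. The 2 groups were separate, but parental replicate 1 and restored-labelled replicate 1 came close to each other. TGFBI rose 1.78-fold between group means of 725 CPM ± 169 and 1288 CPM ± 186 (SD, n = 4 each). In log2 units this was 0.83 (SE 0.18, 95% confidence interval 0.43 to 1.23, edgeR adjusted p = 0.011). Without both replicates 1 the log2 fold change was 1.10, in the fit added after the values were seen. Among the fits without a single library, TGFBI changed least without parental replicate 4 (0.75, edgeR adjusted p = 0.03). Its adjusted p was largest without parental replicate 2 (0.76, edgeR adjusted p = 0.0454). The neighbours of TGFBI on chromosome 5 moved in the same direction. Among the 40 nearest tested genes the median log2 fold change was 0.60, 27 of them passed the threshold, and 13 had a larger log2 fold change than TGFBI. The value left for TGFBI above that median was 0.22. The other 597 tested genes of chromosome 5 had a median of 0.40. The part of this regional shift in the result was not tested.

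SPARC (ENSG00000113140, chromosome 5, 151661096 to 151687165, minus strand) encodes osteonectin, a collagen-binding matricellular protein of fibroblasts and bone. It was scarce, with 1, 30, 13 and 20 counts in the parental and 66, 9, 36 and 43 counts in the restored-labelled libraries, or 0.0890 to 2.03 CPM and 0.743 to 2.37 CPM. The groups overlapped over most of their range. SPARC had a log2 fold change of 0.48 (SE 0.56, 95% confidence interval -0.76 to 1.72, edgeR adjusted p = 0.589), a wide interval on either side of 0. Without both replicates 1 it was -0.10, so no direction can be given. The 40 nearest tested genes of SPARC, on the same chromosome as TGFBI, had a median of 0.54.

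Among the transcription factors, TWIST2 was the only one to pass the test. TWIST2 (ENSG00000233608, chromosome 2, 238848032 to 238910543, plus strand) encodes a basic helix-loop-helix factor of the mesoderm and dermis. It was expressed at a low level, 4.45, 4.94, 5.17 and 7.94 CPM in the parental and 2.33, 0.991, 2.76 and 2.50 CPM in the restored-labelled libraries, on 12 to 111 counts per library. The highest restored-labelled value lay below the lowest parental one. TWIST2 fell 2.58-fold between group means of 5.63 CPM ± 1.57 and 2.15 CPM ± 0.789 (SD, n = 4 each). As a log2 fold change this was -1.37 (SE 0.32, 95% confidence interval -2.07 to -0.66, edgeR adjusted p = 0.0154). It passed in all 17 alternative analyses, with adjusted p values (edgeR, DESeq2 or limma-voom) from 0.000435 to 0.0443.

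SNAI1 (ENSG00000124216, chromosome 20, 49982999 to 49988886, plus strand) encodes Snail, the zinc-finger repressor of CDH1. Its values were 9.52, 6.70, 5.34 and 4.72 CPM in the parental and 5.13, 5.201, 2.46 and 1.91 CPM in the restored-labelled libraries. Parental replicates 3 and 4 and restored-labelled replicates 1 and 2 lay close together between 4.72 and 5.34 CPM, so that the groups overlapped. SNAI1 had a log2 fold change of -0.85 (SE 0.36, 95% confidence interval -1.64 to -0.05). Its p was 0.0388 before adjustment and 0.126 after it in edgeR. Without parental replicate 1, which had the highest value, it was -0.62.

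ZEB1 (ENSG00000148516, chromosome 10, 31318495 to 31529814, plus strand) encodes a zinc-finger and homeodomain repressor that opposes the miR-200 family. It stood at 8.81, 10.8, 10.2 and 13.9 CPM in the parental and at 9.79, 7.84, 10.1 and 13.2 CPM in the restored-labelled libraries. The 2 ranges nearly coincided. ZEB1 had a log2 fold change of -0.10 (SE 0.21, 95% confidence interval -0.55 to 0.36, edgeR adjusted p = 0.780), so a change within those bounds was not detectable. Its direction flipped to 0.04 without parental replicate 4. An exon of ZEB1 overlaps ZEB1-AS1 on the opposite strand, which held 618 counts over all libraries, beside 1478 for ZEB1. If strand was not used, reads of the shared bases cannot be assigned.

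The remaining factors were at or near 0 counts in both groups. SNAI2 (ENSG00000019549, chromosome 8, 48917604 to 48921740), encoding Slug, had 1 count in parental replicate 2 and 0 in every other library. TWIST1 (ENSG00000122691, chromosome 7, 19020991 to 19117672) had 2 counts in parental replicate 4, 5 in restored-labelled replicate 4 and 0 elsewhere. ZEB2 (ENSG00000169554, chromosome 2, 144364364 to 144524583) had 2, 1, 1 and 0 counts in the parental and 9, 1, 2 and 1 in the restored-labelled libraries. A count of 0 allows up to 3 counts, or 0.108 to 0.267 CPM depending on the library, by counting error alone. None of the 3 passed the expression filter, and exact two-sided permutation tests of log2 CPM over the 70 labelings gave p = 1 for SNAI2 and TWIST1 and p = 0.543 for ZEB2, where the smallest possible p is 0.0286. A difference between the groups was not detectable at this depth.

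**Figure D2:**
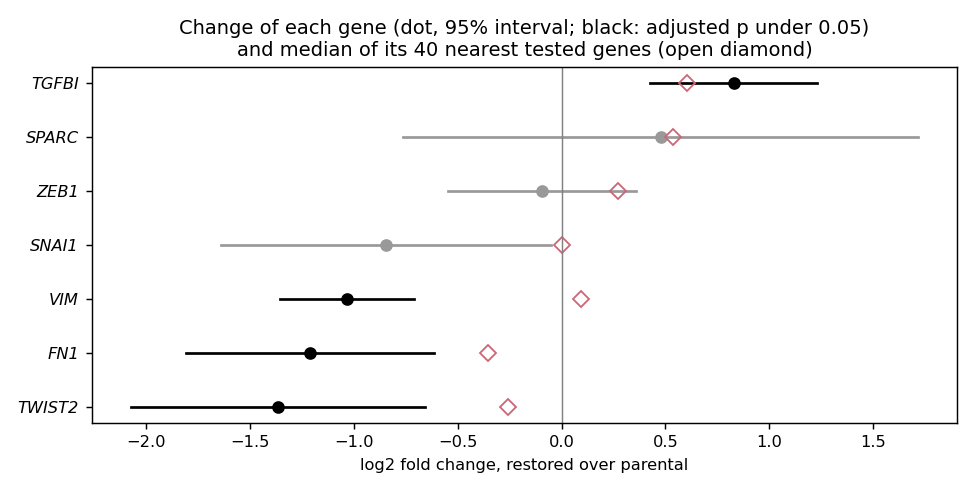
Log2 fold change (horizontal axis, restored-labelled over parental) of each tested gene with its 95% confidence interval, black where the edgeR adjusted p was under 0.05, and the median log2 fold change of its 40 nearest tested genes (open diamond). TGFBI and SPARC lie near the diamonds of chromosome 5 at 0.60 and 0.54, whereas VIM at -1.03 and TWIST2 at -1.37 lie away from medians of 0.10 and -0.26.

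The neighbours of the 3 genes that fell were examined in the same way. The 40 tested genes nearest to VIM had a median log2 fold change of 0.10, opposite in sign to VIM, and 6 of them passed the threshold. Those nearest to FN1 had a median of -0.35, which left -0.86 for FN1. Those nearest to TWIST2 had a median of -0.26, and all 40 had a larger log2 fold change than TWIST2. Of the 40 genes nearest to FN1 12 passed the threshold, and of those nearest to TWIST2 also 12. The other 936 tested genes of chromosome 2, which holds FN1 and TWIST2, had a median of -0.165. The part of this shift in the results for FN1 and TWIST2 was not tested.

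Levels can be compared between genes only per exon length, and were taken as CPM per kb of merged annotated exons. In the parental libraries TGFBI (92.8 ± 21.6), VIM (81.5 ± 11.3) and FN1 (61.2 ± 21.1 CPM per kb, SD, n = 4 each) led, with ranges that overlapped between neighbours in this order. SNAI1 (3.90 ± 1.27) and TWIST2 (3.00 ± 0.838 CPM per kb) followed more than 10-fold below and overlapped each other. ZEB1 came next at 1.27 ± 0.247 CPM per kb, and its highest parental value of 1.61 lay under the lowest of TWIST2 at 2.37. SPARC was last of the tested genes at 0.244 ± 0.168 CPM per kb. In the restored-labelled libraries TGFBI (165 ± 23.8) stood clear of VIM (39.8 ± 5.01 CPM per kb), with a lowest value of 131 against a highest of 44.05. VIM and FN1 (26.4 ± 6.66 CPM per kb) still overlapped. TWIST2 (1.14 ± 0.420) and ZEB1 (1.18 ± 0.256 CPM per kb) were now level with each other. Merged exon length counts every annotated isoform, and which exons were used in these cells was not measured.

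**Figure D3:**
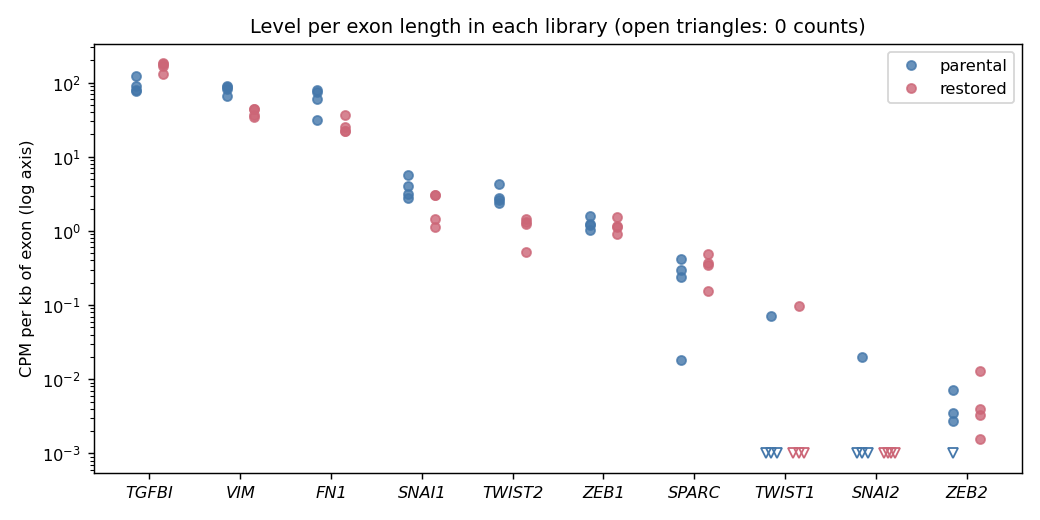
Level per exon length (CPM per kb, log axis) of all 10 genes in each parental (blue) and restored-labelled (red) library, ordered by the parental mean, with open triangles for libraries with 0 counts. TGFBI, VIM and FN1 form the top group, and TWIST1, SNAI2 and ZEB2 rest on single libraries or on a handful of counts.

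Ratios within a library do not depend on its scaling. The ratio of TGFBI to VIM per exon length was 1.52, 0.910, 0.985 and 1.19 in the parental libraries. In the restored-labelled ones it was 2.97, 4.11, 4.88 and 4.90, without overlap. The mean ratio went from 1.15 ± 0.274 to 4.22 ± 0.909 (SD, n = 4 each). Since neither gene's values overlapped between the labels and the 2 moved in opposite directions, this ratio had to separate, and it adds no test to theirs. The ratio of FN1 to VIM did not separate the labels, at 0.755 ± 0.250 and 0.663 ± 0.131 (SD, n = 4 each, exact two-sided permutation p = 0.657). That of ZEB1 to TWIST2 rose from 0.429 ± 0.0394 to 1.14 ± 0.412 (SD, n = 4 each). Its exact two-sided permutation p of 0.0286 is the smallest possible. TWIST2 alone already separated the labels and ZEB1 hardly moved, so this ratio mostly restates TWIST2 and adds no test to it. These ratios were chosen after the values were seen, among 5 computed. The others were TGFBI to FN1 and ZEB1 to SNAI1 (exact two-sided permutation p = 0.0571 and 0.257).

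Within the parental group, replicate 1 differed from the other libraries in some of these genes and not in others. On the log2 CPM scale it lay 1.16 below the mean of the other parental libraries in FN1 (a difference of -1.16) and further below in SPARC (-2.98). It lay above them by 0.60 in TGFBI and by 0.77 in SNAI1. VIM differed by 0.02. Parental replicate 4 had the highest TWIST2 and ZEB1 of its group (0.70 and 0.48 above the mean of the others) and the lowest VIM (-0.41). What set these libraries apart was not tested.

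Other genes of the programme were read from 7 lists, by their counts and medians and without a test of any list. Beside each list, the same fit called 19.2% of all tested genes, and the median over all of them was 0.003.

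The TGF-beta signalling list of 24 ligands, receptors, SMAD proteins and binding proteins had 21 tested genes, of which 2 were higher and 4 lower (median log2 fold change 0.03). The ligand gene TGFB1 fell from 139 CPM ± 14.01 to 92.4 CPM ± 6.92 (log2 fold change -0.59, SE 0.12, edgeR adjusted p = 0.0066). LTBP1, encoding a protein that holds latent TGF-beta in the matrix, rose from 1.62 CPM ± 0.475 to 12.8 CPM ± 5.97 (log2 fold change 2.98, SE 0.38, edgeR adjusted p = 0.000605). SKI, a co-repressor of SMAD proteins, fell by 0.43 on the log2 scale (SE 0.12, edgeR adjusted p = 0.025), a call lost in 7 of 17 alternative analyses. BAMBI, a decoy receptor and with TGFB1 the most abundant of the list per exon length, did not pass (232 and 278 CPM, edgeR adjusted p = 0.124). The list's remaining calls, named after their values were seen, also went both ways. TGFBR1 was higher (log2 fold change 0.59, edgeR adjusted p = 0.0262). SMAD3 and LTBP3 were lower (log2 fold changes -0.56 and -0.69, edgeR adjusted p = 0.0459 and 0.025). Lower TGFB1 and higher TGFBI thus stood side by side in the same libraries, and TGFB1 does not stand for the whole list.

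Of 19 other EMT-linked transcription factors, 13 were tested, 0 were higher and 1 was lower in edgeR's test (median -0.12). At an unadjusted p under 0.05 the counts were also 0 and 1, and DESeq2 and limma-voom each called 1. The call was SOX4, a high-mobility-group factor, at 102 CPM ± 16.8 and 67.2 CPM ± 15.7 (log2 fold change -0.60, SE 0.18, edgeR adjusted p = 0.0415), and it was lost in 9 of 17 alternative analyses. TCF12, a partner of Twist proteins, was at 33.0 and 47.0 CPM (edgeR adjusted p = 0.168). The genes of the helix-loop-helix inhibitors ID1, ID2 and ID3 did not pass, at 286, 110.5 and 300.1 CPM in the parental and 244, 80.1 and 239.5 CPM in the restored-labelled libraries (edgeR adjusted p between 0.232 and 0.402). ID2 and ID3 passed without restored-labelled replicate 1, which had the highest ID2 and ID3 of its group, at log2 fold changes of -0.78 and -0.65 instead of -0.46 and -0.32 (edgeR adjusted p = 0.0198 and 0.0294). Leaving out parental replicate 1 gave 0 calls in the list, and leaving out restored-labelled replicate 1 gave 3. SOX4 passed in neither fit (edgeR adjusted p = 0.0605 and 0.068). Without both replicates 1, 4 genes of the list passed, and SOX4 did not (-0.39, edgeR adjusted p = 0.0684). PRRX1, TCF4, FOXC2, GSC, KLF8 and SNAI3 were too low to test.

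The list of 26 other mesenchymal and matrix markers had 14 tested genes, 3 of them higher and 0 lower in edgeR's test (median 0.19). At an unadjusted p under 0.05 these were 3 and 3, and DESeq2 called 3 genes and limma-voom 4 in either direction. The list's calls numbered 7 without either replicate 1 alone and 9 without both, and its median turned to -0.10 without restored-labelled replicate 1, so no direction can be given for it. MMP14, a membrane-bound matrix metalloproteinase, rose from 13.4 CPM ± 4.67 to 78.01 CPM ± 22.5 (log2 fold change 2.54, SE 0.27, edgeR adjusted p = 0.000222). COL5A2, a fibrillar collagen chain, rose from 2.57 CPM ± 0.580 to 21.7 CPM ± 10.4 (log2 fold change 3.08, SE 0.42, edgeR adjusted p = 0.000871). COL6A1 rose from 8.27 CPM ± 5.19 to 22.7 CPM ± 8.35 (log2 fold change 1.47, SE 0.38, edgeR adjusted p = 0.0226), a call lost in 3 of 17 alternative analyses. The most abundant genes of the list per exon length, the collagen chaperone SERPINH1 and the fibronectin receptor subunit ITGA5, did not pass (log2 fold changes -0.12 and -0.15, edgeR adjusted p = 0.504 and 0.548). The matrix genes thus moved both ways, FN1 down and MMP14, COL5A2 and COL6A1 up.

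N-cadherin, the cadherin of mesenchymal cells, was singled out after its values were seen. CDH2 stood at 1.25, 17.8, 16.7 and 22.3 CPM in the parental and at 9.22, 0.908, 0.197 and 0.273 CPM in the restored-labelled libraries. Both replicates 1 lay away from their groups and towards the other one. The log2 fold change was -2.39 (SE 1.03, edgeR adjusted p = 0.131). It was -5.16 without restored-labelled replicate 1 (edgeR adjusted p = 0.0039), -2.75 without parental replicate 1 (edgeR adjusted p = 0.036) and -5.57 without both (edgeR adjusted p = 1.3e-07), so that the call depends on these 2 libraries. Without an expression filter it also passed (-2.37, edgeR adjusted p = 0.000806).

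Epithelial junction and surface markers formed a list of 24 genes, 18 of them tested, with 3 higher and 1 lower (median -0.04). Without parental replicate 1 the calls numbered 8, and without both replicates 1 they numbered 10. CDH1, encoding E-cadherin, stood at 125, 162, 164 and 155 CPM in the parental and at 218, 211, 198 and 229.6 CPM in the restored-labelled libraries. The groups did not overlap, and the rise was 0.50 on the log2 scale (SE 0.12, edgeR adjusted p = 0.0181), lost in 2 of 17 alternative analyses. The tight junction gene TJP3 rose from 28.99 CPM ± 7.58 to 86.4 CPM ± 16.6 (log2 fold change 1.58, SE 0.20, edgeR adjusted p = 0.000615). JUP, encoding plakoglobin, rose from 57.9 CPM ± 16.1 to 121 CPM ± 46.9 (log2 fold change 1.07, SE 0.26, edgeR adjusted p = 0.018). Its restored-labelled values were 191 CPM in replicate 1 and 91.6 to 109 CPM in the other libraries, and its call was lost without parental replicate 2 (edgeR adjusted p = 0.0605). The lower call was PKP3, encoding a desmosomal plakophilin, at 2.49 and 0.727 CPM (log2 fold change -1.78, SE 0.51, edgeR adjusted p = 0.0325), named as the list's only lower call after its values were seen. The keratin genes KRT8 and KRT18, the most abundant of the list per exon length, did not pass (log2 fold changes -0.09 and -0.10, edgeR adjusted p = 0.703 and 0.719). Their direction turned without restored-labelled replicate 4. EPCAM, an epithelial surface marker, averaged 0.190 CPM in the parental and 0.118 CPM in the restored-labelled libraries and was too low to test.

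Epithelial transcription and splicing regulators formed a list of 19 genes. Of its 15 tested genes, 0 passed in edgeR's test (median -0.08), with 5 at an unadjusted p under 0.05, and DESeq2 called 2 and limma-voom 0. KLF5 and FOXA2, with p-values among the smallest of the list, had log2 fold changes of 0.55 and -0.35 (edgeR adjusted p = 0.054 and 0.115). CEBPA and HNF4A, factors of hepatocyte identity and the most abundant of the list per exon length, had log2 fold changes of 0.13 and 0.09 (edgeR adjusted p = 0.733 and 0.772). CEBPA stood at 112 CPM in restored-labelled replicate 1 and at 218 to 255 CPM in the other restored-labelled libraries, and without both replicates 1 it passed at a log2 fold change of 0.47 (edgeR adjusted p = 0.0206). HNF4A turned to -0.03 without parental replicate 1. KLF5 passed without restored-labelled replicate 3 (0.67, edgeR adjusted p = 0.0406). Without parental replicate 1, 1 gene of the list passed, and without both replicates 1, 4 genes did. ESRP1 and GRHL2, which hold cells in an epithelial state, were too low to test, as were GRHL3 and OVOL1.

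All 17 genes of the list of cofactors and turnover factors of the Snail and ZEB proteins were tested, and 4 were higher and 3 lower (median -0.02). GSK3A, encoding a kinase of the GSK3 pair, rose from 81.5 CPM ± 14.8 to 125 CPM ± 16.1 (log2 fold change 0.61, SE 0.15, edgeR adjusted p = 0.0178). SIAH1, a ubiquitin ligase gene, rose by 0.55 on the log2 scale (SE 0.14, edgeR adjusted p = 0.0208). KDM1A, encoding a histone demethylase recruited by Snail, fell from 73.4 CPM ± 8.16 to 52.6 CPM ± 3.93 (log2 fold change -0.48, SE 0.12, edgeR adjusted p = 0.0195). HDAC1, a deacetylase of the same complexes, fell by 0.38 on the log2 scale (SE 0.11, edgeR adjusted p = 0.0358). In turn, the calls of GSK3A, SIAH1, KDM1A and HDAC1 were lost in 3, 3, 7 and 9 of 17 alternative analyses.

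Relatives and partners of the marker proteins made a list of 19 genes, of which 7 were tested, 3 were higher and 0 lower in edgeR's test (median 0.51). At an unadjusted p under 0.05 these were 5 and 0, and DESeq2 and limma-voom each called 3. SMOC1, a calcium-binding matricellular relative of SPARC, had 4 to 5 counts in each parental library, where 1 count equals 0.0677 to 0.0891 CPM. It rose to 57.4 CPM ± 19.0 in the restored-labelled libraries (log2 fold change 7.24, SE 0.36, edgeR adjusted p = 1.5e-06). NES, encoding the intermediate filament protein nestin that assembles with vimentin, rose from 0.397 CPM ± 0.217 to 4.36 CPM ± 0.986 (log2 fold change 3.40, SE 0.38, edgeR adjusted p = 0.000288). VTN, encoding the hepatocyte-made adhesion protein vitronectin, rose from 429 CPM ± 76.8 to 1016 CPM ± 136 (log2 fold change 1.24, SE 0.16, edgeR adjusted p = 0.000701). FBLN1, encoding fibulin, did not pass (96.7 and 119.9 CPM, edgeR adjusted p = 0.0901). VTN and NES thus rose in the libraries in which FN1 and VIM fell.

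**Figure D4:**
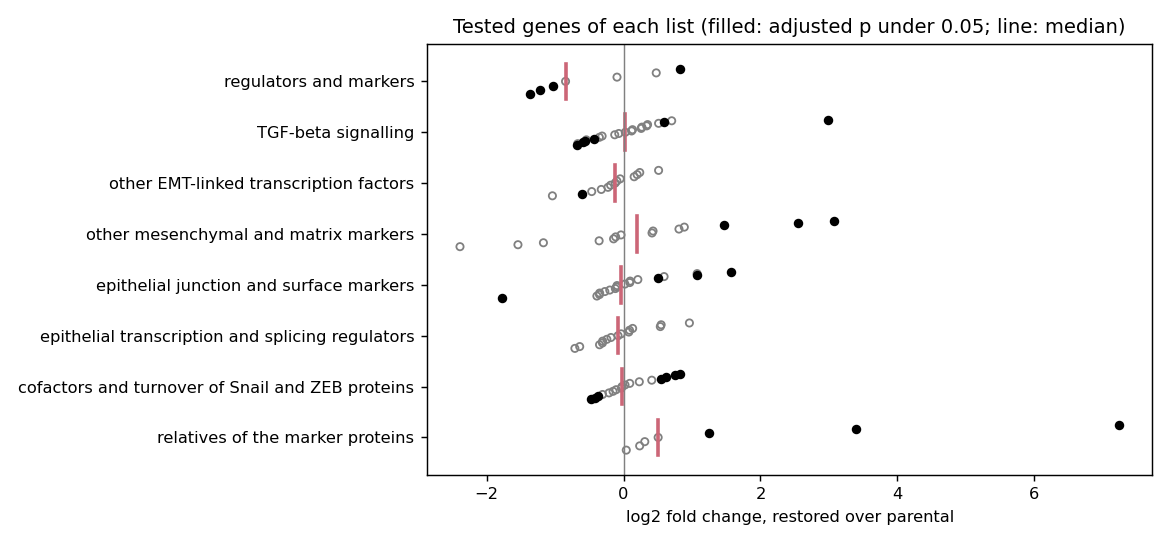
Log2 fold change (horizontal axis, restored-labelled over parental) of every tested gene in each list, filled where the edgeR adjusted p was under 0.05, with the list's median as a red line. The medians of the 7 further lists lie between -0.12 and 0.51, and that of the regulators and markers at -0.85.

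Markers of other cell types were read beside these groups. The 10 hepatocyte markers were all tested and summed to 24480 to 28740 CPM in the parental and 18370 to 22030 CPM in the restored-labelled libraries. Of these markers 2 were higher and 3 lower, with a median log2 fold change of -0.41. Among all tested genes 10.4% were higher and 8.77% lower, and the median was 0.003. The part of the hepatocyte markers in the result for VIM, FN1 and TWIST2 was not tested. The 8 fibroblast and stellate cell markers summed to 2.71 to 3.29 CPM and 1.38 to 4.84 CPM, and COL1A2, COL3A1, DCN and LUM averaged under 0.1 CPM in both groups. The 5 smooth muscle markers summed to 6.77 to 25.99 CPM and 12.02 to 22.4 CPM, nearly all from TAGLN, with ACTA2 at 0.0222 and 0 CPM. The 5 endothelial markers summed to 4.58 to 6.77 CPM and 34.2 to 58.5 CPM, nearly all from PECAM1, while VWF, CDH5, KDR and TIE1 averaged at most 0.144 CPM. Of the leukocyte markers, PTPRC averaged 0.0445 and 0.00976 CPM and CD3E had 0 counts throughout, while LYZ made up nearly the whole sum of 422 to 949 CPM and 672 to 920 CPM.

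The genes most like each changed gene were sought over the 8 libraries, by the smallest root mean square difference of centred log2 CPM among genes with a mean of at least 1 CPM. For VIM these were MAP4K3-DT, GPR157 and DRAM2, at differences of 0.116 to 0.125. For TGFBI they were RETREG3, EPHX1 and KLHL24, at 0.094 to 0.103. FN1 was followed by ZNF577, CRYZL2P and PHYHIPL, at 0.151 to 0.20, and like FN1, PHYHIPL was lowest among parental libraries in replicate 1. TWIST2 was followed less closely, by DLX2, P2RY2 and CBARP, at 0.23 to 0.249. None of these 12 genes is a member of the lists above.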

How the data were processed

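RNA was sequenced from 8 libraries of Alexander1 cells, 4 parental and 4 labelled Axin1+, grouped and numbered by their titles. The authors deposited raw counts per gene. Per the submitters' processing notes, bcl2fastq, fastp 0.23.1 and STAR 2.7.4 were used with GRCh38. Which program counted the reads, on which annotation and with which strand setting is not given in the sources used here. Per the labels' protocols, total RNA was column-purified and made into mRNA libraries with unique dual indexes. All 8 columns were matched to samples by name, and 0 columns belonged to no sample.

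Identifiers were matched to symbols (57495 of 58206) and to GENCODE 29 on GRCh38 (57943), which gave positions, merged exon lengths and overlaps. Promoter windows came from RefSeq (GRCh38.p14). In R 4.3.3, edgeR 4.0.16 kept 14289 genes (filterByExpr, minimum count 10, minimum total 15), scaled libraries by TMM and ran the two-sided quasi-likelihood test without covariates, with Benjamini-Hochberg adjustment over all tested genes and a threshold of 0.05. Standard errors divide the size of the log2 fold change by the square root of F, and intervals are at 95%. Log2 CPM values use a prior count of 2. The code of the test was run on simulated counts with set changes. That simulation had no outlying library, so it does not show how well the calls hold here.

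The members and lists were chosen with earlier results of these data known. Named are all 10 members, from each other list the 3 genes with the smallest p and the 2 with the highest level per exon length, and the 3 genes most like each member called. A gene that this rule names is not reported here. CDH2, PKP3, AXIN1, TGFBR1, SMAD3, LTBP3 and the genes of the closing observations lie outside this rule and were picked with their values known. So do genes listed as too low to test or as cell type markers. As alternatives, libraries were scaled by size factors of DESeq2 1.42.0, by upper quartiles or by totals alone, and genes were kept without a filter or from a mean of 1 CPM upwards. The Wald test of DESeq2, limma-voom (limma 3.58.1), a block for the replicate number, a threshold of 0.01 and fits without 1 library each were also run. Leaving out both replicates 1 was added after seeing the data. The 17 alternative analyses counted for a gene do not include the threshold of 0.01.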

Additional observations from a re-analysis of the deposited data

Results flagged for a closer look

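Among the 51 tested genes named by the rule, 102 groups of 4 libraries were examined for a library far from the other libraries of its group, and 5 had one. Chance alone flags about 1 in 20 groups. None of the 7 tested regulators and markers was among them. ID1 was low in parental replicate 3 (205 CPM, against 306 to 322 CPM in the other parental libraries). The other 4 were genes found as most like a changed gene. They were picked over these same libraries, so their flags are not independent of the gene they resemble. The rate of 1 in 20 is no yardstick for them. GPR157, like VIM, was low in parental replicate 4 (171 CPM against 212 to 215). CRYZL2P, like FN1, was high in restored-labelled replicate 1 (33.4 CPM against 21.4 to 23.0). PHYHIPL, also like FN1, was low in parental replicate 1 (9.35 CPM against 24.6 to 27.6). EPHX1, like TGFBI, was high in parental replicate 1 (112 CPM against 72.5 to 77.1).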

How the results depend on the processing

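The number of regulators and markers called was 4 under each alternative except the threshold of 0.01. There 1 was called, VIM, and FN1, TWIST2 and TGFBI were not. The number not overlapping was 3 or 4 under each scaling and with libraries left out. The counts of 3 and 4 do not name the genes. With the replicate block, FN1 lost its call (-1.18, adjusted p = 0.0518) and SNAI1 gained one (-0.91, adjusted p = 0.0418). The labels state no pairing by number. Same-numbered libraries deviated together with correlations of -0.063, 0.0067, -0.033 and 0.227, and differently numbered ones with correlations from -0.425 to 0.448. These correlations cannot show whether libraries were prepared in pairs. The threshold of 0.01 left 964 genes in all and 8 in the 7 lists together, beside 2738 and 24. With both replicates 1 left out these were 4623 and 48, and the list medians of cofactors and of relatives were -0.27 and 0.61. Leaving out single libraries gave 1394 to 3523 genes in all and 10 to 32 in the lists. The fewest came without restored replicate 4, parental replicate 2 and restored replicate 3 (1394, 1508 and 1531 genes in all, 13, 10 and 15 in the lists). By list, single libraries left out gave 2 to 7 calls for TGF-beta signalling, 0 to 3 for EMT factors, 2 to 7 for mesenchymal markers, 2 to 8 for junction markers, 0 to 1 for epithelial regulators and 1 to 6 for cofactors. List medians then ranged from -0.15 to -0.0418 for epithelial regulators, -0.20 to 0.0327 for epithelial junction markers, -0.10 to 0.44 for other mesenchymal markers, -0.16 to 0.17 for cofactors and 0.36 to 0.62 for relatives. With total counts only, the medians of epithelial regulators and relatives were -0.0022 and 0.60, and without an expression filter that of relatives was 1.11. Directions reversed for ZEB1 (0.0403 without parental replicate 4 and 0.0094 without restored replicate 2, in a leave-one-out range of -0.24 to 0.0403), SPARC (-0.10 without both replicates 1), HNF4A (-0.0323 without parental replicate 1, range to 0.188), KRT18 (0.0091 without restored replicate 4, range from -0.20) and KRT8 (0.0060 without restored replicate 4, range from -0.172). The cause was not tested. Depth limits SNAI2, TWIST1, ZEB2 and SPARC.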

Other observations

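The endothelial marker list was led by 1 gene. PECAM1, encoding an adhesion molecule of endothelial cells and platelets, rose, with means of 5.18 CPM ± 0.951 and 48.2 CPM ± 10.3 (SD, n = 4 each, log2 fold change 3.22, SE 0.21, edgeR adjusted p = 8.4e-06), higher in 4 of 4 libraries than in any parental one. PDGFRB, a receptor of fibroblasts and pericytes, fell from 1.69 CPM ± 0.639 to 0.221 CPM ± 0.162 (log2 fold change -2.87, SE 0.53, edgeR adjusted p = 0.0045). COL1A1, the other tested gene of the fibroblast and stellate cell markers, went the other way and did not pass. It averaged 1.11 CPM in the parental and 1.87 CPM in the restored-labelled libraries (log2 fold change 0.81, edgeR adjusted p = 0.3075).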
